A study of Homo sapiens with 6 samples.

Results

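The regions described here are acetylation peaks that were called in sodium benzoate-treated cells, shared no base with any acetylation peak of the control cells, and shared at least 1 bp with a benzoylation peak. They were selected on the peak calls alone, over chromosomes 1 to 22 and X, and numbered 344 of the 63282 acetylation peaks of the treated cells. ChIP-seq with pan antibodies against lysine acetylation (Kac) and lysine benzoylation (Kbz) was carried out in cells labelled HepG2, a human liver tumour cell line, without treatment (control) or with 10 mM sodium benzoate (SB) for 24 h. The series held 6 libraries, 1 for each of Kac, Kbz and input in control and treated cells, so that no value below has a replicate and no difference between the cultures has a test. The control Kac list held 70326 peaks and the SB Kbz list 24308, while, per the labels, no peak had been called for Kbz in control cells, so that the benzoylation at these regions has no control list to set beside it. Intervals given for shares are 95% Wilson intervals, those for differences between shares are Newcombe intervals, and both cover counting error only.

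Acetylation of histone lysines neutralises their charge, serves as a docking site for bromodomain proteins and marks active promoters and enhancers. Benzoylation places a bulkier aromatic acyl group on the same kind of residue and is made from benzoyl-CoA, which cells form from benzoate. Sites of active chromatin in a cell therefore often carry several acyl marks at once, and pan antibodies read such marks on many histone lysines together.

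Gained peaks were a small share of the SB Kac peaks that carried Kbz. Of the 21390 SB Kac peaks that shared a base with Kbz, the 344 regions made up 1.61% (interval 1.45 to 1.79). Among all SB Kac peaks 27.5% had no control Kac peak, and among the 41892 without Kbz 40.7% had none. These shares were fixed by the selection and describe the lists. The sets were not matched for the fold enrichment of the Kac peaks. Among Kbz-bearing SB Kac peaks the share was 20% in the weakest 10% of the list and 0.0477% in the strongest 10%. Absence from the control list means that no peak was called there, not that acetylation was zero, because signal under the calling limit was not analysed here.

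Reference sequence is shown for 6 of the regions because the hexamer CACGTG, the canonical E-box bound by basic helix-loop-helix factors such as MYC, MAX, USF and TFE3, occurred in more of their windows than in the windows of other acetylation peaks. Each line gives the plus strand of hg38 at the centre of the peak, written in lower case with each CACGTG in capitals. The first 4 are the E-box carriers among the 12 regions of highest Kac fold, the fifth is an E-box carrier over the canonical start of a coding gene, and the sixth, from the promoter-class region of highest fold, holds no E-box. Bases annotated as untranslated were left out, which shortened the MICAL2 window to the 161 bases just before the start site.
MAP7 intron, chr6:136351817-136352116: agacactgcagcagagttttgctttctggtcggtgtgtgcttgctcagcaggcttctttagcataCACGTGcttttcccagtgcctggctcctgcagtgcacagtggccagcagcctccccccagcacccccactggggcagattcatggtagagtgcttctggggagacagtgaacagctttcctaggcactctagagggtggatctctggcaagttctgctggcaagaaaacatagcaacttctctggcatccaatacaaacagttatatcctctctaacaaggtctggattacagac
PLD1, chr3:171640565-171640864: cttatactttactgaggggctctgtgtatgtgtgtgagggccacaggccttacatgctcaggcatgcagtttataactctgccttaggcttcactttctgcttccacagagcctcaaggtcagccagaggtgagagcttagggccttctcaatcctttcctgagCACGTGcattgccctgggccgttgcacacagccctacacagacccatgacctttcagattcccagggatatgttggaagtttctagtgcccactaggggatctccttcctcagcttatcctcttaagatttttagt
Intergenic, chr7:67378415-67378714: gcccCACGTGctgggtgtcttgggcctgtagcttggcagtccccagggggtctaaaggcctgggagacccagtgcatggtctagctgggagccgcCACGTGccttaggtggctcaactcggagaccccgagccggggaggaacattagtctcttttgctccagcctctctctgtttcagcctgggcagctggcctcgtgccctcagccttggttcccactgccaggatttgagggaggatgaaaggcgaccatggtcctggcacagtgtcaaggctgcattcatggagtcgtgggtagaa
PRKD2, chr19:46697301-46697600: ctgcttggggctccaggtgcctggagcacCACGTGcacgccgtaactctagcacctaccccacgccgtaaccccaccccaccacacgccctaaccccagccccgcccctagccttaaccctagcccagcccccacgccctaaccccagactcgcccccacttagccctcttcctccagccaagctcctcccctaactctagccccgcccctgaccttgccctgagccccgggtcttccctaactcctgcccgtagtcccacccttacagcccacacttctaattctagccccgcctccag
MICAL2, chr11:12110429-12110589: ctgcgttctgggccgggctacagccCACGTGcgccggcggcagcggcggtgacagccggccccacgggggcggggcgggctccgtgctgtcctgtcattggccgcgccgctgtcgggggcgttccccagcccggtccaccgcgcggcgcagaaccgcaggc
FLNC, chr7:128841306-128841605: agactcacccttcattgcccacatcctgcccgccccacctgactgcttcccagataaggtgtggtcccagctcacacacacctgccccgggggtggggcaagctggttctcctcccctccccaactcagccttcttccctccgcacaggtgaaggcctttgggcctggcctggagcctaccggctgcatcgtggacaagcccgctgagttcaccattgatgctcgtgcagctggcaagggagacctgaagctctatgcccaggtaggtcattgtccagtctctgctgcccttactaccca
The MAP7 and PLD1 windows each held 1 E-box and 2 CpG dinucleotides. The intergenic chromosome 7 window held 2 E-boxes and 9 CpG. In PRKD2 the E-box began 11 bp from an internal annotated start of the gene, in a window of 65.7% GC, and in MICAL2 it began 136 bp before the canonical start, in a run of 78.9% GC with 24 CpG.

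In the central 300 bp of the peaks, CACGTG was present in 45 of the 344 regions, or 13.1% (interval 9.92 to 17.1). The word is its own reverse complement, so that each match counts for both strands. It was present in 7.05% of the 21046 Kac peaks with Kbz that overlapped control Kac (called stable here), 6.03 percentage points below the 344 regions (interval of the difference 2.86 to 10). In the 17036 gained Kac peaks without Kbz the share was 4.99%, which was 8.09 points lower (4.91 to 12.1). All SB Kac peaks together had 5.74%, and 7.26% of 35116 RefSeq hg38 promoters of the same length held the word. Of the 309 Kac peaks lost from the control with Kbz 8.41% held it, and their interval, 5.81 to 12, overlapped that of the 344 regions. The difference also stood against the 2818 stable peaks with Kbz whose Kac fold fell within the middle range of the 344 regions, of which 6.64% held an E-box. The intervals of the 344 regions and of these peaks, 5.77 to 7.62, did not overlap. Length was not matched, and the median was 743 bp for the regions and 1733.5 bp for these peaks.

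Along the regions, the share of windows with an E-box was highest at the centre. In windows of 300 bp placed 300 bp to the left and to the right of the centre it was 7.85% (5.45 to 11.2) and 6.69% (4.5 to 9.83). The interval on the left overlapped that of the central window. In windows 900 bp away the share was 4.07% and 4.65%. The stable peaks of like fold varied between 4.15% and 6.64% over the same positions. With the window centred on the stretch shared with Kbz, 12.8% of the regions held an E-box.

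The share also followed the strength of acetylation. Of the 172 regions below the median Kac fold 6.98% held an E-box (12 regions), a value 0.231 points from that of stable peaks with Kbz in the same fold range (interval -3.1 to 5.22). Of the 172 at or above the median 19.2% did (33 regions), 12.1 points above stable peaks with Kbz (6.92 to 18.7) and 12.8 points above gained peaks without Kbz (7.48 to 19.4). In the 86 regions of highest fold the share was 19.8%, against 5.93% of the 523 gained peaks without Kbz in that fold range. The word was 1 of 18 motifs searched, it was singled out after the shares were seen, and the division by fold and by position was made afterwards, so that its intervals take no account of that choice.

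**Figure D1:**
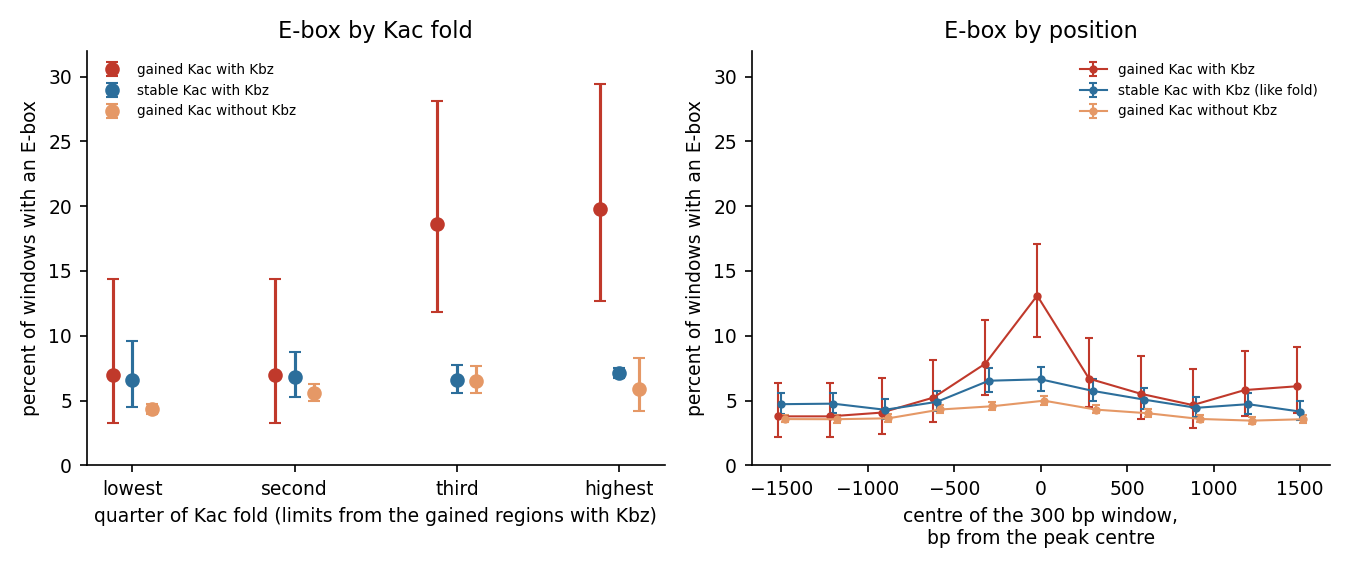
Percent of 300 bp windows with CACGTG, with 95% Wilson intervals, in 4 classes of Kac fold (left; limits taken from the 344 regions, 86 in each) and by distance of the window from the peak centre (right). The 344 gained Kac regions with Kbz stood at 18.6% and 19.8% in the upper pair of fold classes and at 13.1% at the centre, whereas the stable Kac peaks with Kbz and the gained Kac peaks without Kbz stayed below 9%.

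Words related to CACGTG were looked at in the same windows, each against stable peaks with Kbz and gained peaks without Kbz. The E-box CAGCTG, used by other helix-loop-helix families, was in 18.6% of the regions, 16.3% of stable peaks with Kbz and 17.5% of gained peaks without Kbz. CATGTG, or CACATG, was in 20.9% of the regions (17 to 25.5), above the 13.2% of stable peaks with Kbz and beside the 20.2% of gained peaks without Kbz. CACGCG, or its complement CGCGTG, was in 6.4% of the regions (4.26 to 9.49), beside 8.21% of stable peaks with Kbz and above the 1.59% of gained peaks without Kbz. The core ACGT likewise stood at 33.4% (28.7 to 38.6), with 32.4% of stable peaks with Kbz and 23.8% of gained peaks without Kbz. With the neighbouring base taken into account, CCACGTG or CACGTGG was found in 9.3% of the regions, 4.31% of stable peaks with Kbz and 2.84% of gained peaks without Kbz, and TCACGTG or CACGTGA in 4.65%, 2.5% and 1.56%. GCACGTG or CACGTGC was in 6.4%, 2.98% and 2.08%, so that each of these flanked forms was more frequent in the regions.

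The other motifs were compared with the same sets. The GC box GGGCGG, bound by SP factors, was in 20.3% of the regions (16.4 to 24.9), between 32.2% of stable peaks with Kbz and 7.63% of gained peaks without Kbz, and in 20.1% of the stable peaks with Kbz of like fold. The RUNX word TGTGGT was in 20.3% of the regions (16.4 to 24.9), above the 14.2% of stable peaks with Kbz and beside the 19.3% of gained peaks without Kbz. Stable peaks with Kbz of like fold held it in 16.3% (15 to 17.7), an interval that overlapped that of the regions. The GATA word GATAA was in 23.3% of the regions (19.1 to 28), beside 24% of stable peaks with Kbz and below the 34.1% of gained peaks without Kbz. The CCAAT box was in 31.1% of the regions, 27.5% of stable peaks with Kbz and 31.4% of gained peaks without Kbz, and the AP-1 site TGANTCA in 8.14%, 8.44% and 10.1%. The ETS site CCGGAAG was in 3.2%, 6% and 1.44%, the CArG box of SRF in 2.03%, 1.35% and 1.81%, and the ATF4 composite TGATGNAA in 1.74%, 3.17% and 4.18%. Of the stable peaks with Kbz of like fold 3.02% held the ETS site. The CTCF core CCCTC was in 64.8%, 68.4% and 58.5%, the TEAD word GGAATG in 15.1%, 14.2% and 17.9%, and the antioxidant element TGACNNNGC in 11%, 12.2% and 11.3%. The forkhead word TGTTTAC was in 2.91%, 3.17% and 4.4%, and the p53 motif in 6.69%, 7.08% and 8.58%. The NRF1 and YY1 sites were found in 1 and 2 regions. The cyclic AMP element TGACGTCA and the HNF4 word CAAAGTCCA were in none of the 344 windows, which allows shares of up to 1.1% by the interval, and in 0.775% and 0.333% of stable peaks with Kbz. In those of like fold they were in 0.319% and 0.106%. Of the 18 motifs, CACGTG was the one whose interval lay above the intervals of both sets. Both strands were searched, and a match describes the letters and not a bound factor.

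The 45 E-box regions were spread over 24 promoter-class regions, 12 introns, 6 intergenic regions and 3 exons, which was 14.8% of the promoter class and 14.3% of the intronic class. Their median Kac fold was 3.26 against 2.93 for the 299 without the word, their median Kbz fold 3.36 against 3.13, and their median length 582 bp against 787 bp. Besides the regions printed above they included ITGB5, which encodes an integrin beta chain (fold 3.65), TFDP1, the dimerisation partner of E2F factors (3.21), CAMK2B, a calcium-dependent kinase (3.54), and CSF2, the gene of the cytokine GM-CSF (3.51). These 4 were named after their values were seen.

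By Kac fold, the enrichment over background that the peak caller wrote for each peak, the regions were of middling strength. Fold ran from 2.22 to 5.83 with a median of 2.97, and the median region stood at percentile 49.5 of all SB Kac peaks. With the SB Kac list cut into 10 equal classes from the weakest to the strongest, the regions numbered 20, 26, 43, 36, 48, 52, 61, 44, 11 and 3. The share of Kbz-bearing SB Kac peaks that they made up fell along the same order from 20% (13.3 to 28.9) to 0.0477% (0.0162 to 0.14). Of the 6289 Kbz-bearing peaks in the strongest class, only MAP7, FLNC and PLD1 had no control Kac peak. The SB Kac list reached a q-value of 0.0494. With -log10 q of 2 as a limit, 260 of the 344 regions passed, and with a limit of 5 only 40 did.

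**Figure D2:**
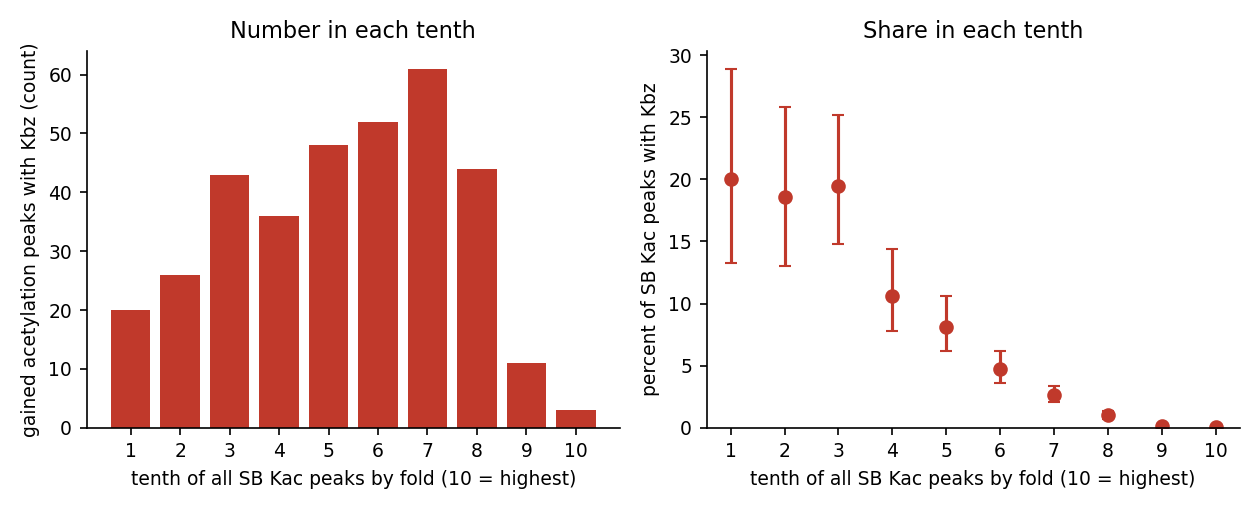
Number of the 344 regions in each class of 10% of the SB Kac peaks ordered by fold (left), and their share of the SB Kac peaks with Kbz in that class with 95% Wilson intervals (right). Numbers were highest in class 7, with 61 regions, and the share fell from 20% in class 1 to 0.0477% in class 10.

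Benzoylation at the regions was weak. The Kbz peaks had a median fold of 3.15 (2.54 to 7.16), and the median stood at percentile 22.1 of the Kbz list. In 193 regions (56.1%) the Kbz peak was below percentile 25, and in 7 it was above percentile 75. The regions and their Kbz peaks formed 345 pairs, since 1 region, in CFAP46, held more than 1 Kbz peak. The shared stretch had a median of 350.5 bp (8 to 1472) and covered a median of 56.5% of the region. The Kbz peak lay wholly inside the region in 126 cases, and the region wholly inside the Kbz peak in 32. Across the 344 regions the Spearman correlation of Kac fold with Kbz fold was 0.38, a description over regions that share both libraries.

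The regions were also short, at a median of 743 bp (280 to 3916), against 2437 bp for stable Kac with Kbz and 709 bp for gained Kac without Kbz. Together they covered 0.326 Mb. The nearest control Kac peak was a median of 5613 bp away (10 to 307093). It was within 1 kb of 26 regions, within 3 kb of 118 and within 10 kb of 219, while 15 regions had none within 100 kb. Isolation and strength were weakly related, with a Spearman correlation of 0.31 between fold and distance.

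**Figure D3:**
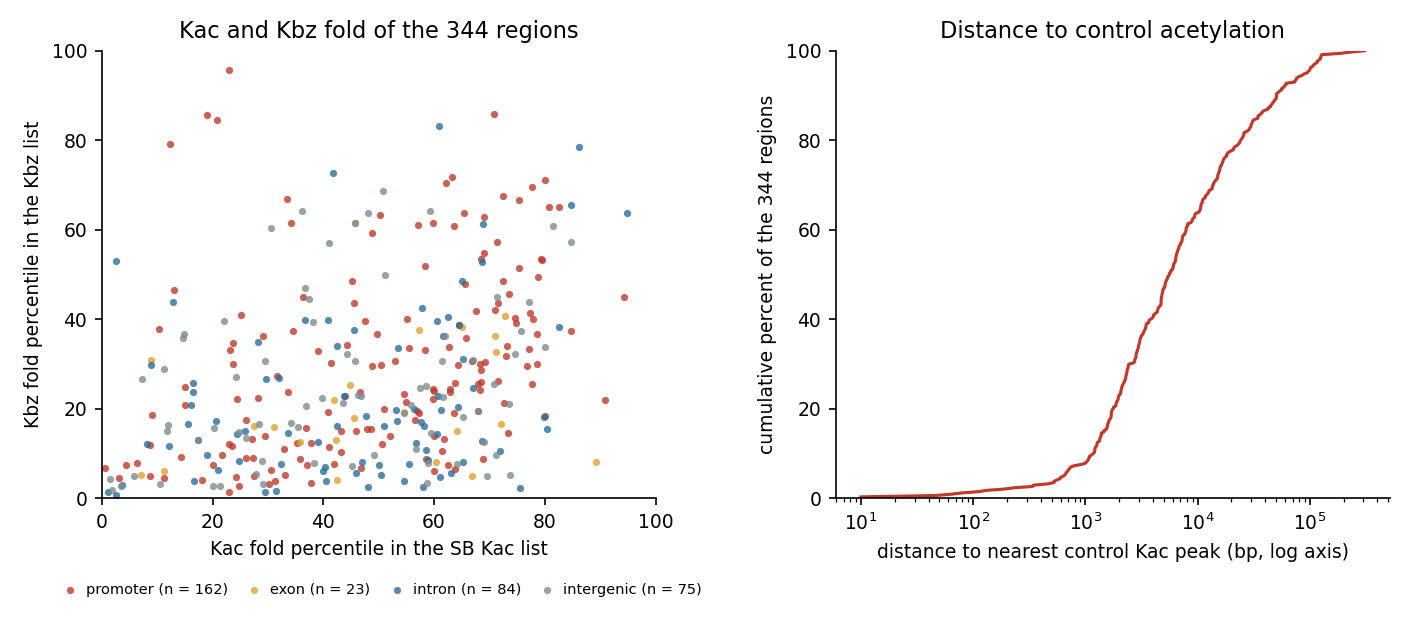
Percentile of Kac fold against percentile of Kbz fold for the 344 regions, coloured by genomic class (left), and cumulative percent of regions by distance to the nearest control Kac peak on a log axis (right). Of the points, 56.1% lie below Kbz percentile 25, and 63.7% of the regions had a control Kac peak within 10 kb.

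The rule divided near-identical cases at its edge. Just inside it, a region in SLC28A1 at chr15:84944013-84945507 lay 10 bp from a control Kac peak, and regions on chromosomes 17 and 19 lay 45 bp and 63 bp away. Just outside, SB Kac peaks near PFKFB3, POLR1G and ATG16L1 shared 8, 35 and 36 bp with control Kac. In all, 4 regions lay within 100 bp of a control peak and 14 excluded peaks shared 1 to 100 bp with one.

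The strongest region was inside an intron of MAP7, which encodes a microtubule-associated protein, at chr6:136351602-136352332. It had a Kac fold of 5.83 (percentile 94.8, -log10 q 15.5) and a Kbz fold of 4.43 in a Kbz peak of 440 bp, with the nearest control Kac peak 24405 bp away. The second, at chr7:128840662-128842249, covered an annotated internal start of FLNC, the actin cross-linker filamin C, 10256 bp from the canonical start of the gene. Its Kac fold was 5.72 and its Kbz fold 3.77, and a control Kac peak of percentile 96.7 stood 6584 bp away and covered that canonical start. The third, at chr3:171640527-171640903, lay 2251 bp from an internal start of PLD1, which makes phosphatidic acid, and 169580 bp from its canonical start. Its Kac fold was 5.19 and its Kbz fold only 3.15. A region over an exon of UBE2E2, a ubiquitin-conjugating enzyme, had a Kac fold of 4.99 and a Kbz fold of 2.85, at Kbz percentile 8.14.

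Of the remaining 8 of these 12 regions, 3 were of the promoter class, at BTBD2, at PRKD2 and at the start of a long noncoding gene near NPIPB4, and the first lay 372 bp from the canonical start of BTBD2. The PRKD2 region (protein kinase D2) was 19088 bp from the canonical start and had a Kac fold of 4.2 and a Kbz fold of 4.48. Regions in introns of FRMD5, a FERM domain protein, and SDK1, a cell adhesion molecule, had Kac folds of 4.52 and 4.34, with control Kac peaks 3089 bp and 1612 bp away. By contrast, no control Kac peak stood within 30 kb of the UBE2E2 region, of the chromosome 7 region printed above, or of a region at chr16:21820459-21820888, for which the nearest was 116264 bp away. The region at chr9:34675109-34675996 combined a Kac fold of 4.66 with a Kbz fold of 5.18, the only one among the 12 that was also among the 8 of highest Kbz fold.

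**Figure D4:**
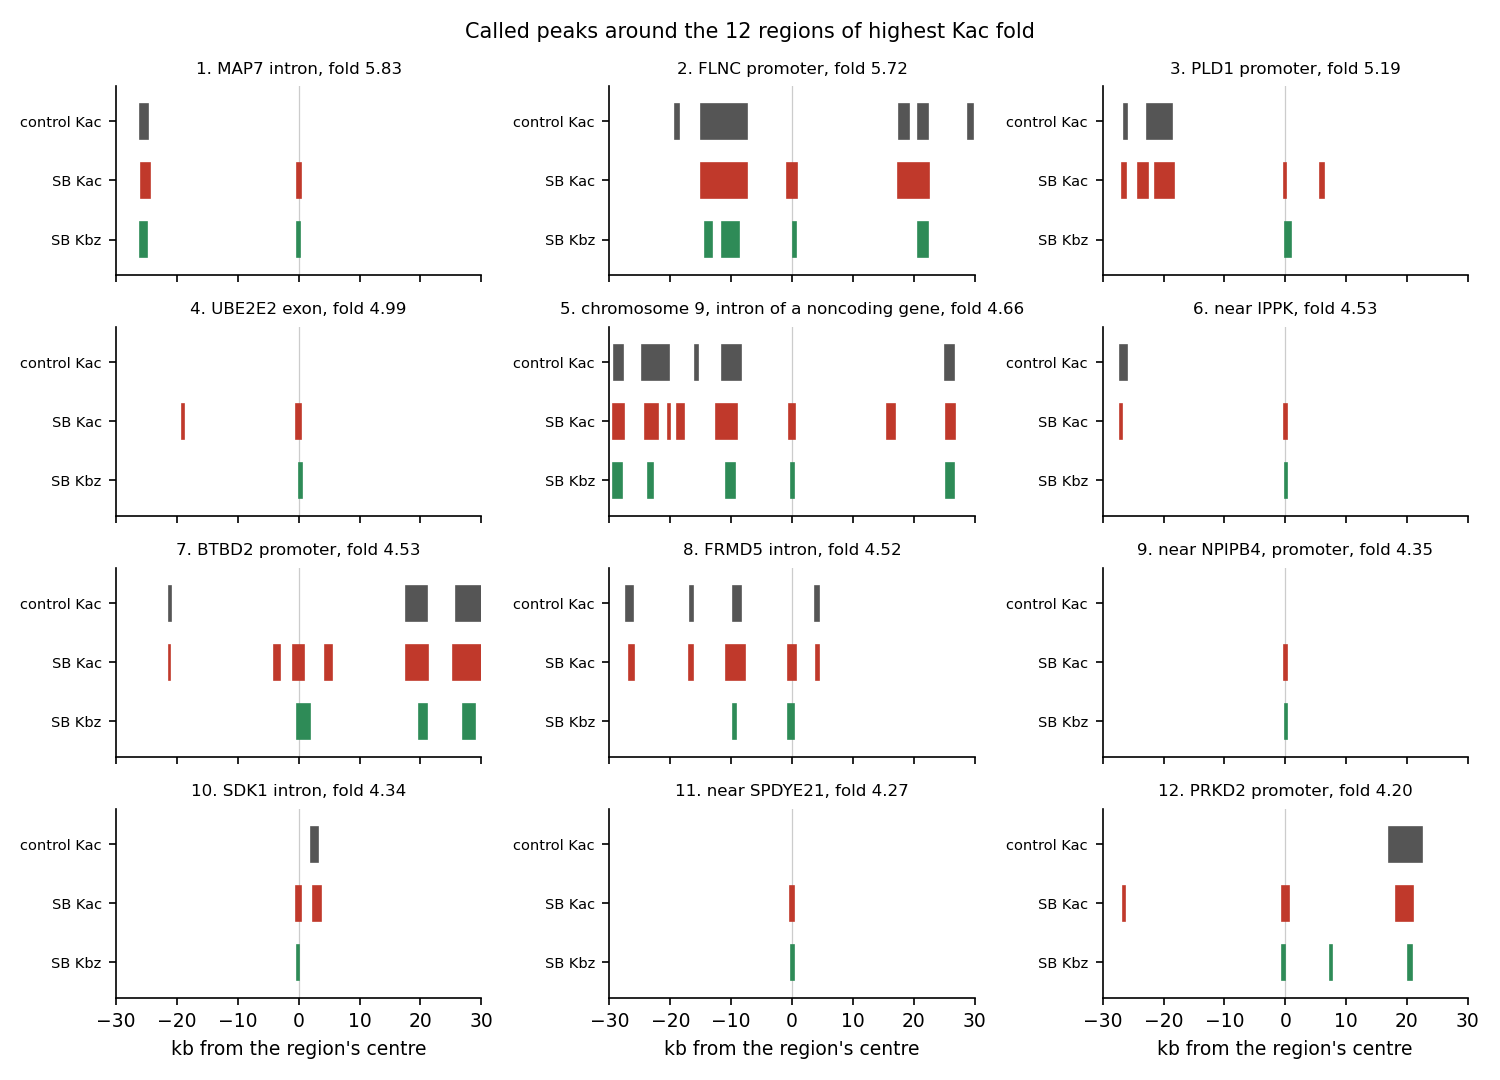
Called peaks within 30 kb of the centre of the 12 regions of highest Kac fold, one row for each of control Kac, SB Kac and SB Kbz; promoter in a title means within 3 kb of any annotated start. At every centre an SB Kac and an SB Kbz interval stand with no control Kac interval, with neighbouring control peaks around FLNC and none in the window at UBE2E2 or near NPIPB4.

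The regions of highest Kbz fold were of more than 1 kind. Among the 8 regions with the highest Kbz fold, those at KHDC4, near THOC2 and at IMPDH2 had a Kbz peak that also reached a control Kac peak and was 1732 to 5975 bp long. The KHDC4 region had the highest Kbz fold, 7.16, with a Kac fold of 2.62, and its Kbz peak shared 1775 bp with control Kac. At IMPDH2, an enzyme of guanine nucleotide synthesis, the whole region lay inside the Kbz peak and Kac fold was 2.52. Those at CBFA2T3, WDPCP, SYN3 and chromosome 9, had Kbz peaks of 356 to 756 bp that touched no control Kac. Of all 344 regions, 16 had a Kbz peak that reached control Kac.

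By position, 162 regions (47.1%, interval 41.9 to 52.4) lay within 3 kb of an annotated transcription start site, 84 in introns, 75 between genes and 23 in exons. Stable Kac with Kbz was at starts in 69.3%, and the difference of the regions from it was -22.2 points (-27.5 to -16.9). The stable peaks with Kbz of like fold were at 48.3%, a difference of -1.17 points whose interval, -6.7 to 4.42, included 0. Gained Kac without Kbz, of similar length, was at starts in 29.5%, which was 17.6 points less (12.4 to 23), and Kac lost from the control with Kbz in 33.7%. With 1 canonical start for each gene the share was 29.1%, against 60.9% for stable Kac with Kbz and 15.7% for gained Kac without Kbz.

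A start site itself lay under 19.2% of the regions, more than under gained Kac without Kbz of similar length (6.45%, a difference of 12.7 points, 8.91 to 17.2) and under lost Kac with Kbz (9.71%, 9.48 points, 4.09 to 14.8). The share was lower than the 29.2% of the stable peaks with Kbz of like fold, a difference of -9.98 points (-14.2 to -5.2), and the median lengths of these sets were 743 bp and 1733.5 bp. Of the 162 promoter-class regions 66 covered a start, 46 lay upstream of the nearest and 50 downstream. Windows with GC of at least 55% and an observed to expected CpG ratio of at least 0.65 made up 8.43% of the regions, against 28.5% for stable Kac with Kbz, 9.87% for those of like fold and 1.13% for gained Kac without Kbz. Median GC was 53.3%, against 55.3%, 52% and 47.3% in these sets.

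**Figure D5:**
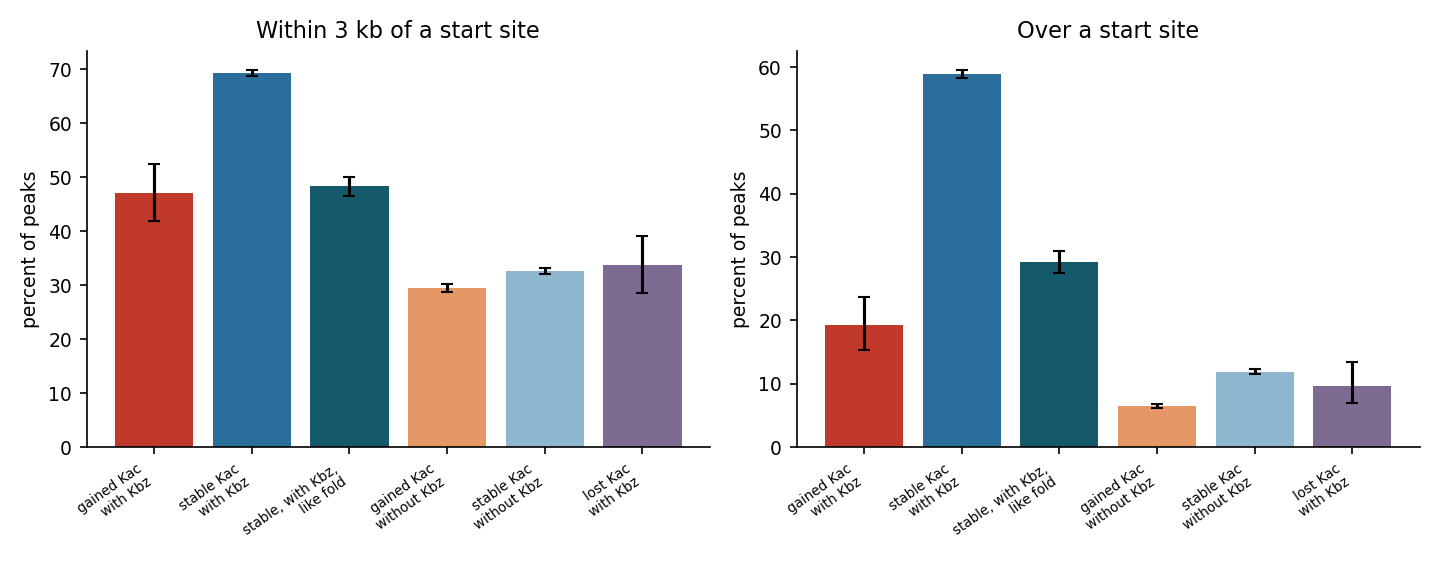
Percent of peaks within 3 kb of any annotated start site (left) and over one (right), with 95% Wilson intervals, for the 344 regions and 5 other peak sets. At 47.1% the regions stood beside stable Kac peaks with Kbz of like fold, at 48.3%, and above gained Kac without Kbz, at 29.5%.

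The canonical start of a coding gene lay under 20 regions. The strongest was at ZNF91, a KRAB zinc finger gene whose product silences mobile elements, with a Kac fold of 4.1, a Kbz fold of 4.05 and no control Kac within 120758 bp. STEAP1, a membrane protein of the metalloreductase family, had 4.0 and 4.68, with the nearest control Kac at 56117 bp. The protein kinase genes PIM2 and PRKX had Kac folds of 3.94 and 3.85, and SLC19A3, a thiamine transporter, had 3.48. MICAL2, an enzyme that oxidises actin, had 3.47, and the shared promoter of DDX51 and NOC4L, both of ribosome biogenesis, had 3.39. The remaining 8 of the 15 strongest, with Kac folds from 3.08 to 3.32, were at RBAK, ACOT6, SNX8, TRPA1, NAA60 with ZNF597, TNFRSF10D, MAP6D1 and GNPTG with TSR3. Distances to control Kac were 47914 bp at SLC19A3, 56110 bp at MAP6D1 and 100401 bp at PRKX, but 6379 bp at PIM2 and 7883 bp at MICAL2, so that isolated and crowded promoters were both represented.

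Counted by gene, a region lay at a start of 206 genes, of which 135 were protein coding and 43 long noncoding. This was 0.676% of the 19970 coding genes, while 75.9% had any SB Kac peak at a start. For 99 of the 135 coding genes a control Kac peak stood at another place of a promoter of the gene, and for 36 none did. The first share was 73.3%, and 76.8% of all coding genes had control Kac at a start. All 135 genes, however, had SB Kac at a start by selection. Of the 15155 coding genes with SB Kac at a start, only 426 had no control Kac at one, a smaller part than 36 of 135. The selection of peaks without control Kac bears on this contrast, which is a description. Of the 43 long noncoding genes 28 had no control Kac at a start. Among all 62062 annotated genes, coding genes included, 44.3% had control Kac at a start, so that its absence was common. The 36 coding genes included 7 with a ZNF symbol (19.4%, interval 9.75 to 35), while 13 of the 426 coding genes with SB Kac but no control Kac at a start had one (3.05%). These 13 contain the 7, and the group was noticed after the genes were listed. The 7 were ZNF91, ZNF761, ZNF765, ZNF587 and ZNF285 on chromosome 19, ZNF354A on chromosome 5 and ZNF597 on chromosome 16. Their Kac folds ran from 2.66 at ZNF285 to 4.15 at ZNF761, none of the 7 windows held an E-box, and the nearest control Kac lay between 12907 bp (ZNF597) and 124431 bp (ZNF765) away. Genes of this family resemble each other in sequence, and only uniquely mapped reads had been kept.

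Of 275 genes in the lists chosen for the tissue and the treatment, 8 had a region at an annotated start (2.91%, interval 1.48 to 5.63), beside 0.676% of all coding genes, and each list is small. The lists were chosen with earlier results of these data known, and the interval takes no account of that. The share of all coding genes also counts genes without SB Kac at a start, which could hold no region. Among 44 enzymes of phospholipase D and glycerophospholipid metabolism, 3 had a region at an annotated start (6.82%, interval 2.35 to 18.2): PLD1, the phospholipase gene PLA2G6 (Kac fold 3.96, Kbz fold 3.44) and the diacylglycerol kinase gene DGKQ (3.62 and 3.68). The PLA2G6 region was 66811 bp from the canonical start and the DGKQ region 604 bp. The study had reported these pathways from this same series, among genes with Kbz peaks at start sites, so that this share is no independent result. Its ChIP-seq pathway analysis also required Kac at the start to have fallen or not changed, unlike the gained Kac here. That analysis further required a rise of the transcript. The study's other pathway analysis ranked genes by RNA change, which these peak lists do not measure. Of 30 extracellular matrix and integrin genes 2 had one, ITGA3 (3.53 and 4.09) and ITGB5, and those regions were 31399 bp and 51720 bp from the canonical starts. The actin list had FLNC, 1 of 27. The endoplasmic reticulum stress list had TRIB3, a pseudokinase gene, 1 of 16, with a Kac fold of 2.62 at a region 14048 bp from the canonical start. NAA60 was the 1 of 14 acetyltransferases. No region was at a start of the listed liver products (20 genes), liver transcription factors (10), kidney lineage transcription factors (13), neuronal genes (16), immediate early genes (18), NRF2 targets (12), heat shock genes (11), prostaglandin enzymes (16), lysine deacylases (18) or benzoate enzymes (11). For lists of this size the intervals of a count of 0 reached from 16.1% to 27.8%, so that these counts do not fall below the share of all coding genes.

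The labelled cell line was checked on defining genes. Liver transcription factors had SB Kac at a start in 8 of 10 and liver products in 10 of 20, AFP, APOA1, TTR and TF among them, while ALB, APOB, FGA, FGB, FGG and SERPINA1 had no peak there in SB Kac. Kidney lineage transcription factors had one in 11 of 13 and neuronal genes in 9 of 16. Of all coding genes 75.9% had SB Kac at a start, so that a peak there does not mark a cell type. The identity of the cells was therefore not settled by these peaks, and how this bears on the regions was not tested.

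None of the 5 longest regions, and none of the 5 farthest from control Kac, was among the 12 of highest Kac fold. The 5 longest, in B9D1 next to MAPK7, in CFAP46, at BCAR3, in SLC22A4 and at GNPTG, spanned 3405 to 3916 bp with Kac folds of 2.56 to 3.08, and Kbz covered 17.2% to 29.4% of each. The 5 farthest from control Kac lay 125775 to 307093 bp away, at chrX:27398690-27399074, chr6:104095116-104096052, C2orf27A, an intron of LINC02929 and LINC00621. Their Kac folds ran from 2.79 to 3.72, beside a median of 2.97 over all 344 regions. Of these 5 regions, 3 covered the canonical start of a noncoding gene.

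The regions were spread over all 23 chromosomes. Their share of the Kbz-bearing SB Kac peaks ran from 1.08% on chromosome 6 (14 regions, interval 0.646 to 1.81) to 2.69% on chromosome 20 (17 regions, 1.69 to 4.27), and chromosome 1 had the most, 30 regions. The intervals of these extremes overlapped.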

How the data were processed

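Kac and Kbz ChIP-seq peak lists of HepG2 cells were used, 1 library per group, 3 of the 6 libraries of the series. The authors digested chromatin with MNase, sequenced 50 bp single reads, mapped them to hg38 with Bowtie2 2.2.6, kept unique reads, removed duplicates with SAMtools 0.1.19 and called peaks with MACS2 2.1.1 at a stated FDR of 0.01. The deposited lists give each peak's fold enrichment as a ratio over background, its p-value and q-value as -log10, and a display score made by the peak caller; the score was not used. Read depth per library was unknown from the lists, and depth can change how many peaks are called, in control and treated cells alike. Peaks on chromosomes 1 to 22 and X were compared by shared bases (at least 1 bp), and the overlap code was tested on simulated intervals and against bedtools 2.31.1, which found the same number. Start sites were from GENCODE 44 with a window of 3 kb. Of the tools, Python 3.11.15, numpy 2.4.6, pandas 2.3.3, scipy 1.17.1 and pysam 0.24.0 were used. A fold percentile is the rank among all peaks of the same list. Windows of 300 bp at peak centres were read from hg38 and searched for 18 motifs on both strands, then for 10 words related to the E-box after its share was seen. The share of repeats was not computed, because the sequence used carried no repeat marks.

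Regions were named by rule: the 12 of highest Kac fold, the 8 of highest Kbz fold, the 5 longest, the 5 farthest from control Kac, up to 15 over a canonical coding start, those at a promoter of a gene in 15 lists, and those nearest the edge of the overlap rule; 1 region that the rule names is not reported here. The regions, lists and comparisons were chosen with earlier results of these data known. Alternatives were limits on q, equal list sizes, other overlap rules and other start site windows. With 1 library per group no test between cultures was run.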

Additional observations from a re-analysis of the deposited data

How the results depend on the processing

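No paired analysis was possible because 1 library stood for each group, and none could be left out. The 344 regions became 279 with -log10 q of at least 2 in all lists (1.43% of Kbz-bearing SB Kac peaks, 3.23% with control Kac within 1 kb), of which 182 were the same regions. With a limit of 5 in all lists they became 1122 (10.4%; 80.6% at starts, median 2180 bp, 0.178% with control Kac within 1 kb), of which 10 were the same, and with the 15000 strongest peaks of each list 2521 (21.1%; 81.8%, 2480 bp, 0.198%), of which 9 were the same; in both the control list lost its weaker peaks by construction. With a limit of 5 in the SB lists alone 10 remained (0.0931%; 60% at starts, 0% with control Kac within 1 kb, 30% with an E-box). Requiring 50% cover by Kbz left 189 regions with a median length of 512 bp. Barring control Kac within 1 kb left 318 and made the share within 1 kb 0% by construction, and allowing a control overlap under 10% of the peak made it 11.7%. The share at starts was 33.1% with a window of 1 kb, 35.8% with coding genes alone and 29.1% with 1 canonical start per gene. Merging peaks within 1 kb changed nothing, because no peaks of a list lay that close. The E-box share was 15.4%, 13.8%, 16.9%, 13.4% and 12.8% with the q limit of 2, no control Kac within 1 kb, 50% Kbz cover, the 16 regions whose Kbz peak reached control Kac left out, and windows centred on the shared stretch, and 4.07% in windows 1 kb to either side of the centre; these settings were chosen after seeing the data. Without those 16 regions 328 were left. With no replicates, counts of peaks cannot be set against the spread between cultures, and unequal depth of the control and SB libraries cannot be told apart from treatment.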
